A study of Mus musculus with 4 samples.

Results

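The genes described here carry arginine into the cell and process it: Arg1, Arg2, Nos2, Slc7a1, Slc7a2, Ass1, Asl, Odc1 and Gch1. Their probe sets were those annotated to a single gene symbol, that of a member, which gave 18 probe sets for 9 genes, out of 34958 such probe sets for 18194 genes on the array. One further probe set names both Ass1 and the gene model Gm5424 and was left out. Expression was measured on 4 Affymetrix mouse arrays, with 1 array per group, in MDSCs (myeloid-derived suppressor cells) grown from C57BL/6 bone marrow. All 4 cultures received a lentivirus and then GM-CSF and IL-6 for 4 days. kdLNC received an shRNA against the long noncoding RNA that the labels call lncMDSC and the paper lnc-C/EBPβ, and kdNC a control shRNA. oeLNC received a lentivirus that overexpresses this RNA, and oeNC the overexpression control lentivirus. Every group thus carries a lentivirus, the labels do not say how many mice went into a culture, and the level of the lncRNA itself was not analysed here.

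MDSCs are immature myeloid cells known for suppressing T cells, in part by taking up and breaking down arginine, which T cells need to proliferate. Cationic amino acid transporters bring arginine in, arginases split it into urea and ornithine, and inducible nitric oxide synthase turns it into nitric oxide and citrulline. Ornithine feeds the polyamines through ornithine decarboxylase, citrulline can be rebuilt into arginine by argininosuccinate synthase and lyase, and nitric oxide synthase needs the cofactor tetrahydrobiopterin.

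The noncoding RNA is named after the C/EBP family of transcription factors, so promoter entries of the members (build GRCm38.p6) were searched on both strands. The motifs were the C/EBP-type core TTNNGNAA, the E-box CACGTG and the TATA box letters TATAAA. Entries were found for 4 members (Slc7a1 with 2 start sites, Ass1, Odc1 and Gch1), each of 250 bases before to 50 bases after the start. No entry was available for Arg1, Arg2, Nos2, Slc7a2 and Asl, so the search does not cover them. Odc1 (chr12:17544623-17544922, + strand), Slc7a1 from its start site 2 (chr5:148392766-148393065, - strand) and Gch1 (chr14:47189364-47189663, - strand) are shown because Odc1 holds none of the motifs, while both others hold the C/EBP-type core and the letters TATAAA. Capitals mark the matches.
Odc1: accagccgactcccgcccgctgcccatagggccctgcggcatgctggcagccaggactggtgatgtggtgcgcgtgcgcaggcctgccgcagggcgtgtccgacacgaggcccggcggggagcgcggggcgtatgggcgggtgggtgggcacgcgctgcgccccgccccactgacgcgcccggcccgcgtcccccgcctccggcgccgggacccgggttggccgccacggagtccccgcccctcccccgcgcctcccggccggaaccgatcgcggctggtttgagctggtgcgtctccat
Slc7a1: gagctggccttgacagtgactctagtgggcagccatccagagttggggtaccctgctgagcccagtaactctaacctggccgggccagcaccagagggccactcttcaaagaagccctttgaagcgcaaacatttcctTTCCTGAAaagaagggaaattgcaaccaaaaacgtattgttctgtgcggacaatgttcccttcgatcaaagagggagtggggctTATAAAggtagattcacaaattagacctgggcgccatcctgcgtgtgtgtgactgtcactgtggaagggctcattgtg
Gch1: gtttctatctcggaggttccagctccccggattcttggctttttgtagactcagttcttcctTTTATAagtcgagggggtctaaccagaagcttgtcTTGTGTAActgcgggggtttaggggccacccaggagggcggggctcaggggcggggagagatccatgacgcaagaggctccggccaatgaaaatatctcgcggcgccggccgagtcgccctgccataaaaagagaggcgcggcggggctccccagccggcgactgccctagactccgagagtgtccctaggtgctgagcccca
The core of Slc7a1 and the TATAAA of Gch1 match on the strand opposite to the one shown, and the other marked matches lie on the strand shown. Relative to the start site, the TATAAA match lies at -28 to -23 in Slc7a1 and farther away, at -188 to -183, in Gch1. Of all 32851 promoter entries, 40.7% hold the C/EBP-type core, 7.15% the E-box and 13.6% TATAAA, each counted on either strand anywhere in the window. The E-box was found in Ass1 only among the entries of the 4 members, and start site 1 of Slc7a1 held no match. The GC content was 78% for Odc1, 74% for Ass1, 60.3% for Gch1 and 51.7% for the Slc7a1 window shown, against a median of 52.7% over all promoters. A match is a description of these letters and not a measured binding site.

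The deposited values are intensities on a linear scale, and all levels below are their log2. Array medians were 4.17 to 4.24. A probe set entered the counts of a pair if either of its arrays had it above that array's 50th percentile. By that filter 15 member probe sets passed in every pair, and all 15 were above the 50th percentile on all 4 arrays. The other 3 (1 each of Slc7a1, Slc7a2 and Ass1) were below it on all 4. A difference of at least 2-fold was called. With 1 array per group there is no replicate check and no p-value, so each difference compares 2 arrays. As a yardstick, the SD of oeNC minus kdNC over the 500 probe sets nearest in level is given, a spread that mixes vector, culture and array and does not measure replicate error. Itgam and S100a8, markers of the labelled myeloid cells, were at 8.41 to 9.03 and 13.32 to 13.43 on the 4 arrays, while Ly6c1, Ly6c2 and Ly6g were not analysed here. Fewer cells of a type and less RNA per cell cannot be told apart in these bulk samples.

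Arg1, 3 probe sets of Slc7a2 and 1 of Odc1 were at least 2-fold higher in kdLNC than in kdNC. In the overexpression pair all 5 of these probe sets had lower values in oeLNC than in oeNC, by smaller differences, and 1 of them reached 2-fold. Of all probe sets tested in that pair, 45.3% had a higher value in oeLNC. At all 5 of the called probe sets kdNC was the lowest of the 4 arrays, a position that the call itself favours because it selects a low kdNC. In the knockdown pair 5 of the 15 probe sets that passed were called higher in kdLNC and 0 lower, where 0.769% of all 19770 probe sets tested were higher and 0.283% lower. The median member difference was 0.30, against -0.03 over all probe sets tested. With oeNC in place of kdNC as the control, which also changes the vector, 0 were at least 2-fold higher and 3 were lower in kdLNC, where 5.94% and 4.10% of all 20128 probe sets were. Within the overexpression pair 1 probe set, of Odc1, was lower in oeLNC by that threshold and 0 were higher, where 1.38% of all 20065 probe sets were lower and 0.279% higher. The median member difference was -0.44, against -0.04 over all probe sets.

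**Figure D1:**
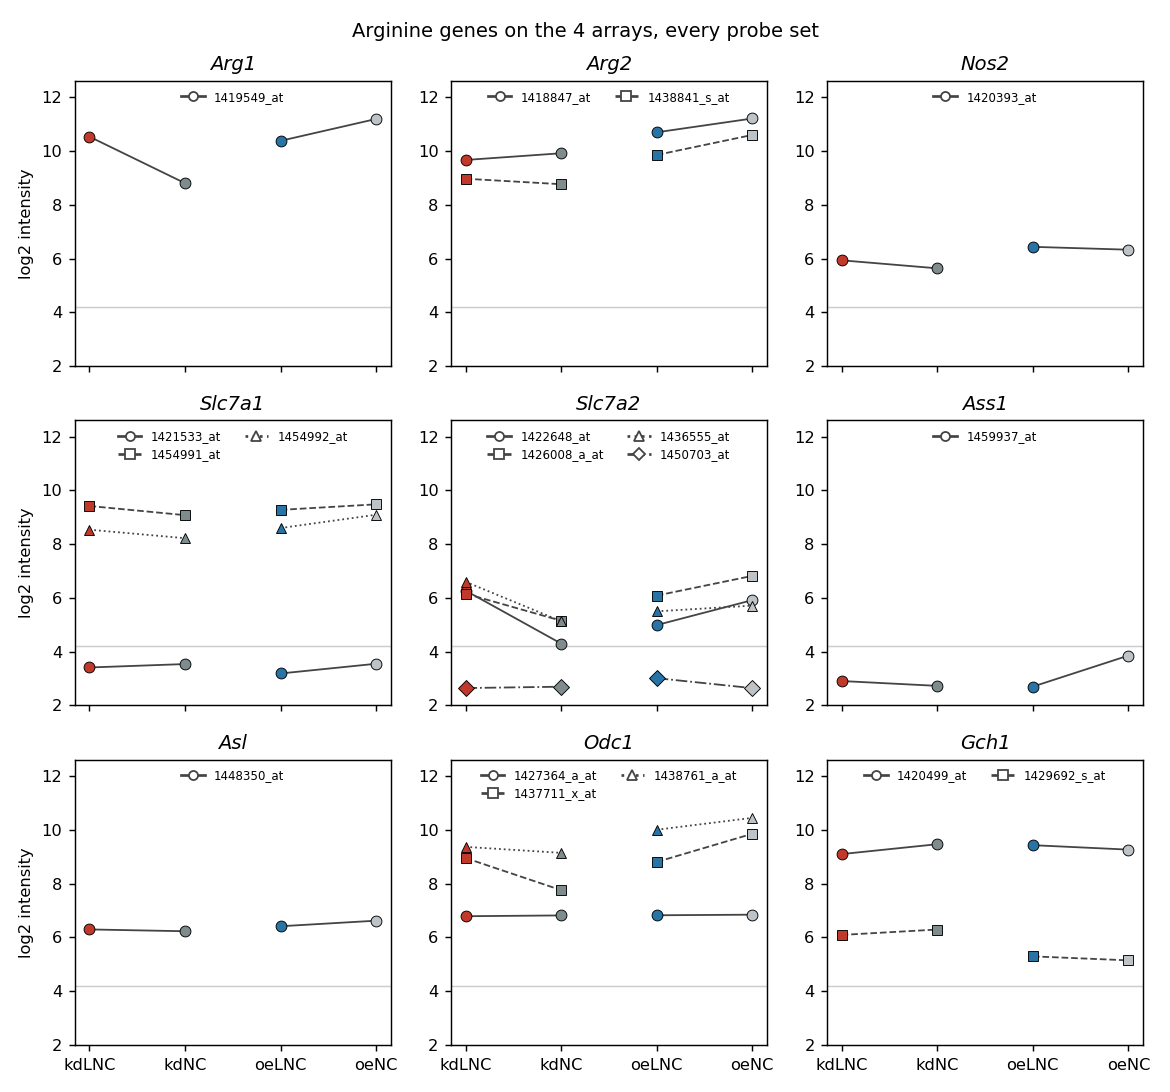
Log2 intensity (vertical axis) of each member probe set on the kdLNC, kdNC, oeLNC and oeNC arrays (horizontal axis, 1 array each), with a panel per gene. The grey horizontal line lies near the array medians of 4.17 to 4.24. Arg1 is lowest at 8.80 in kdNC and highest at 11.19 in oeNC, with both lncRNA arrays between them.

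Arg1 encodes arginase 1, the cytosolic arginase of myeloid cells and liver. Its probe set had log2 levels of 10.53 in kdLNC and 8.80 in kdNC, and of 10.38 in oeLNC and 11.19 in oeNC. kdNC stood below the other 3 arrays, and oeNC was the highest. The difference was 1.73 in the knockdown pair (3.32-fold) and -0.81 in the overexpression pair (1.76-fold lower in oeLNC), where the SD between controls at that level was 0.55. It was among the 13 highest differences of the 19770 probe sets in the knockdown pair, and among the 587 lowest of 20065 in the overexpression pair. The control arrays differed by 2.39 (5.24-fold higher in oeNC than in kdNC), which was larger than either paired difference, and the knockdown call was lost when both controls were averaged: kdLNC then lay 0.54 and oeLNC 0.38 above that mean.

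Arg2 encodes the mitochondrial arginase and has 2 probe sets that passed the filter. One had 9.66 in kdLNC and 9.91 in kdNC, and 10.69 in oeLNC and 11.21 in oeNC. The other, whose ID suffix marks probes shared by several transcripts, had 8.97 in kdLNC and 8.76 in kdNC, and 9.85 in oeLNC and 10.60 in oeNC. Both were higher in the overexpression arrays than in both knockdown arrays, and neither differed by 2-fold within a pair. The knockdown differences were -0.25 and 0.20, and the overexpression differences -0.51 and -0.75, beside a control difference of 1.29 and 1.83 and SDs of 0.53 and 0.52. The direction of the knockdown difference thus differed between the probe sets.

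Nos2 encodes inducible nitric oxide synthase. Its probe set had 5.93 in kdLNC and 5.63 in kdNC, and 6.43 in oeLNC and 6.33 in oeNC. The pair differences of 0.30 and 0.11 were within the SD of 0.60, and the control difference was 0.69. Both overexpression arrays were higher than both knockdown arrays.

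**Figure D2:**
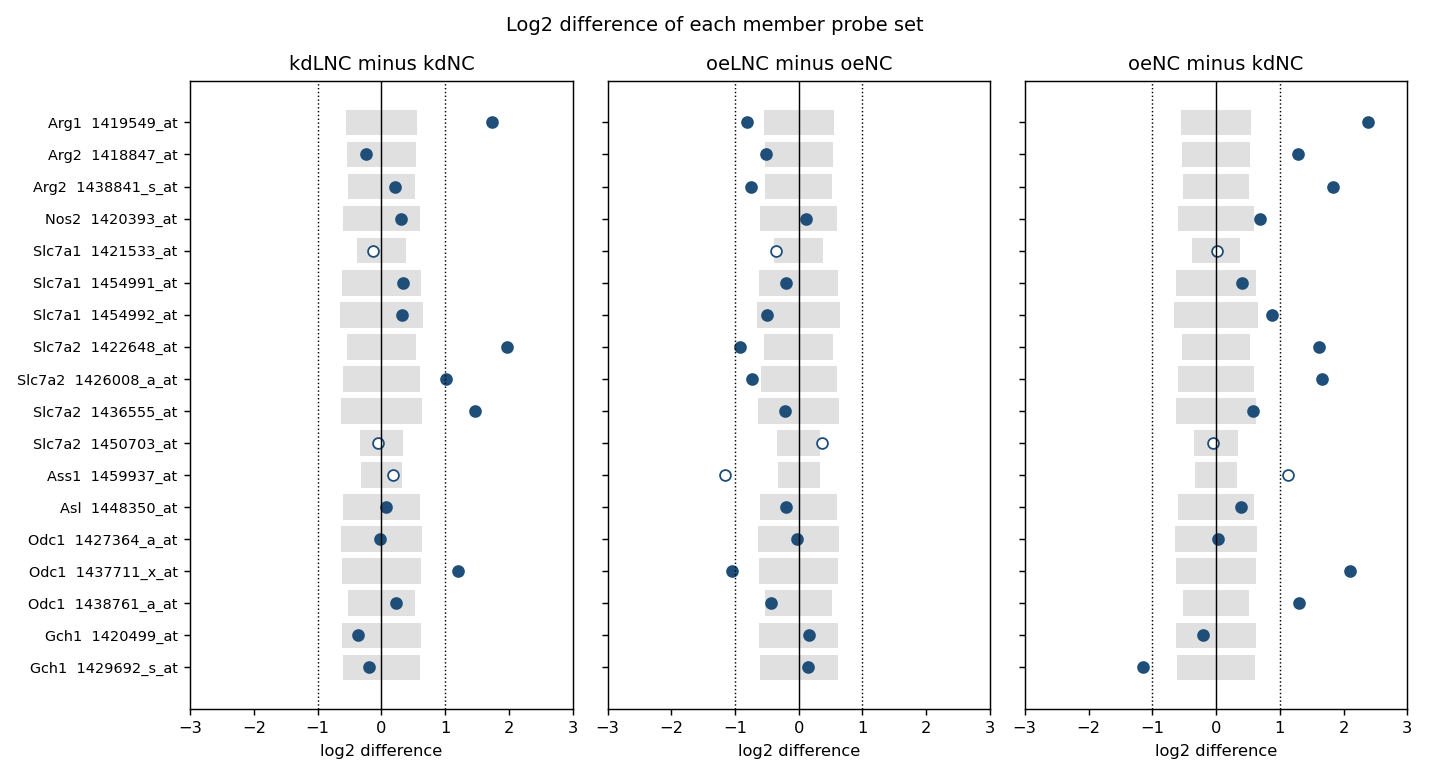
Log2 difference (horizontal axis) of every member probe set in 3 panels: the knockdown pair (kdLNC minus kdNC), the overexpression pair (oeLNC minus oeNC) and the controls (oeNC minus kdNC), with 1 array per group. Grey bars span 1 SD of the control difference at the probe set's level on each side of 0, dotted lines mark 2-fold and open points are probe sets below the filter. The 5 knockdown points past 2-fold are Arg1, 3 Slc7a2 probe sets and 1 Odc1 probe set.

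Slc7a2 encodes the cationic amino acid transporter CAT-2, an inducible arginine carrier of myeloid cells, and had the largest knockdown difference of the members. Its first probe set had 6.27 in kdLNC and 4.30 in kdNC, and 4.99 in oeLNC and 5.92 in oeNC, a difference of 1.97 (3.92-fold) in the knockdown pair and -0.93 (1.90-fold lower) in the overexpression pair. The second had 6.16 in kdLNC and 5.15 in kdNC, and 6.09 in oeLNC and 6.82 in oeNC, differing by 1.01 (2.01-fold) and -0.73. The third had 6.60 in kdLNC and 5.13 in kdNC, and 5.50 in oeLNC and 5.71 in oeNC, differing by 1.47 (2.76-fold) and -0.21. All 3 had their lowest value in kdNC, with kdLNC the highest array at 2 of them and oeNC at the other. The knockdown differences were among the 7, 151 and 26 highest of the 19770 probe sets, and the SDs were 0.54, 0.60 and 0.63. The control differences (oeNC minus kdNC) were 1.62, 1.67 and 0.58. Against the mean of both controls, kdLNC was higher by 1.16, 0.17 and 1.18, so 2 of the 3 stayed at least 2-fold higher. The oeLNC differences from that mean were -0.12, 0.10 and 0.08, so that the direction turned at 2 of the 3. The remaining probe set, below the filter, had 2.65 in kdLNC and 2.70 in kdNC, and 3.02 in oeLNC and 2.65 in oeNC. Of the probe sets that passed, the first lay close to the filter in kdNC, at the 51.6th percentile of that array.

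Slc7a1 encodes CAT-1, the widely expressed arginine carrier. The brighter of the 2 probe sets that passed had 9.42 in kdLNC and 9.08 in kdNC, and 9.27 in oeLNC and 9.48 in oeNC. The other had 8.54 in kdLNC and 8.22 in kdNC, and 8.60 in oeLNC and 9.09 in oeNC. The knockdown differences were 0.34 and 0.32 and the overexpression differences -0.21 and -0.49, all within SDs of 0.62 and 0.65. The third, dim probe set had 3.41 in kdLNC and 3.54 in kdNC, and 3.19 in oeLNC and 3.55 in oeNC. The Slc7a1 differences were thus smaller than those of Slc7a2 in the knockdown pair at every probe set that passed, and the difference between the genes was not tested.

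Ass1 and Asl encode argininosuccinate synthase and lyase, which rebuild arginine from citrulline. Asl had 6.29 in kdLNC and 6.23 in kdNC, and 6.41 in oeLNC and 6.62 in oeNC. Its differences of 0.07 and -0.21 were within the SD of 0.60. Ass1 was left with a dim probe set, at 2.91 in kdLNC and 2.73 in kdNC, and at 2.70 in oeLNC and 3.86 in oeNC. It lay below the filter on every array, and its overexpression difference of -1.15 is therefore given with no call.

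Odc1 encodes ornithine decarboxylase, the first enzyme of polyamine synthesis, and its 3 probe sets differed. One had 8.95 in kdLNC and 7.76 in kdNC, and 8.80 in oeLNC and 9.85 in oeNC. Its differences were 1.19 (2.29-fold) and -1.05 (2.07-fold lower in oeLNC), and it was the only member probe set called in both pairs. Its ID suffix marks probes that may match other genes, and the control difference was 2.10 (4.28-fold). The second had 9.37 in kdLNC and 9.14 in kdNC, and 10.00 in oeLNC and 10.44 in oeNC, with differences of 0.22 and -0.44. The third stayed between 6.79 and 6.84 on all 4 arrays, a range of 0.06. With both controls averaged, the first probe set lay 0.15 above their mean in kdLNC and differed by -0.00016 in oeLNC, so both calls were lost. Its overexpression call was also lost after quantile normalization, at -0.96.

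Gch1 encodes GTP cyclohydrolase 1, which starts the synthesis of tetrahydrobiopterin. Its brighter probe set had 9.10 in kdLNC and 9.46 in kdNC, and 9.43 in oeLNC and 9.26 in oeNC. The other had 6.09 in kdLNC and 6.29 in kdNC, and 5.29 in oeLNC and 5.14 in oeNC. The differences of Gch1 were opposite in sign to those of Arg1 and of the Slc7a1 and Slc7a2 probe sets that passed, with knockdown differences of -0.37 and -0.20 and overexpression differences of 0.16 and 0.15, all within 1 SD. The second probe set was the only member called lower in oeNC than in kdNC, by 1.15 (2.21-fold).

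The pattern over the 4 arrays was shared by most members. kdNC was the lowest array at 11 of 15 probe sets (73.3%), against 16.2% of all 20853 probe sets that passed on some array, and oeNC the highest at 10 (66.7%), against 29.1%. At 10 of 15 (66.7%), against 26.0%, kdLNC exceeded kdNC while oeLNC was below oeNC. Both lncRNA arrays lay between the controls at 9 (60.0%), against 21.1%, and 1 of these, of Gch1, ran the other way, with kdNC the highest array and oeNC the lowest. Between the controls, 7 of 15 member probe sets were at least 2-fold higher in oeNC than in kdNC and 1 was lower, where 3.78% and 4.97% of all 20120 probe sets were. The median member control difference was 0.87, against -0.04 over all. Because the same kdNC and oeNC arrays enter these differences, the knockdown, overexpression and control values of a probe set are not independent. Between the lncRNA arrays, oeLNC minus kdLNC was -0.15 for Arg1 and for the first Odc1 probe set, -1.28, -0.07 and -1.10 for the 3 Slc7a2 probe sets that passed, and 1.03 and 0.88 for Arg2.

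Levels of other cell markers moved with the arrays, and their part in the member differences was not tested. None of the markers was at 0, since the deposited intensities have no 0, and Il5ra and Col3a1 were below the 50th percentile on all 4 arrays. The summed intensity of 8 of 9 mature neutrophil markers was 17942 in kdLNC and 26136 in kdNC, and 26655 in oeLNC and 28464 in oeNC. In kdLNC 7 of 9 probe sets were lower than in kdNC by 1.5-fold or more, where 1.78% of all probe sets tested were. Lcn2 and Mmp8 went the other way, by 0.12 and 0.11. The summed intensity of 8 of 9 monocyte and macrophage markers was 9260 in kdLNC and 10457 in kdNC, and 14396 in oeLNC and 14325 in oeNC. The monocyte sum was lower on both knockdown arrays than on both overexpression arrays. Of these markers F13a1, Adgre1 and the dim Mrc1 were lowest in kdNC, as most members were. F13a1 had 6.55 in kdLNC and 5.87 in kdNC, and 6.78 in oeLNC and 7.27 in oeNC. Adgre1 ranged from 9.80 in kdNC to 9.99 in oeNC. The brightest probe sets of Cd14, Csf1r, Fcgr1 and Cd68 were instead lowest in kdLNC, at 11.53, 11.43, 10.22 and 10.31. That of Ccr2 was lowest in oeNC, at 4.19. Eosinophil markers (5 of 5) summed to 1245 in kdLNC and 2328 in kdNC, and 1091 in oeLNC and 1196 in oeNC. Basophil and mast cell markers (4 of 5) summed to 1648 in kdLNC and 2021 in kdNC, and 991 in oeLNC and 818 in oeNC, and B cell markers (4 of 5) to 2988 in kdLNC and 2838 in kdNC, and 1372 in oeLNC and 1423 in oeNC. Both basophil and B cell markers were higher on both knockdown arrays than on both overexpression arrays. The sums over T and NK cell markers (142 to 171), erythroid markers (101 to 130) and stromal markers (92.0 to 107) were low on all 4 arrays. As a sign of RNA quality, the log2 ratio of the 3' to the 5' beta-actin control was 1.96 in kdLNC and 1.61 in kdNC, and 1.97 in oeLNC and 1.96 in oeNC. That of Gapdh was 0.69 in kdLNC and 0.51 in kdNC, and 0.65 in oeLNC and 0.53 in oeNC. kdNC was lowest in both ratios, but close to oeNC in that of Gapdh.

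**Figure D3:**
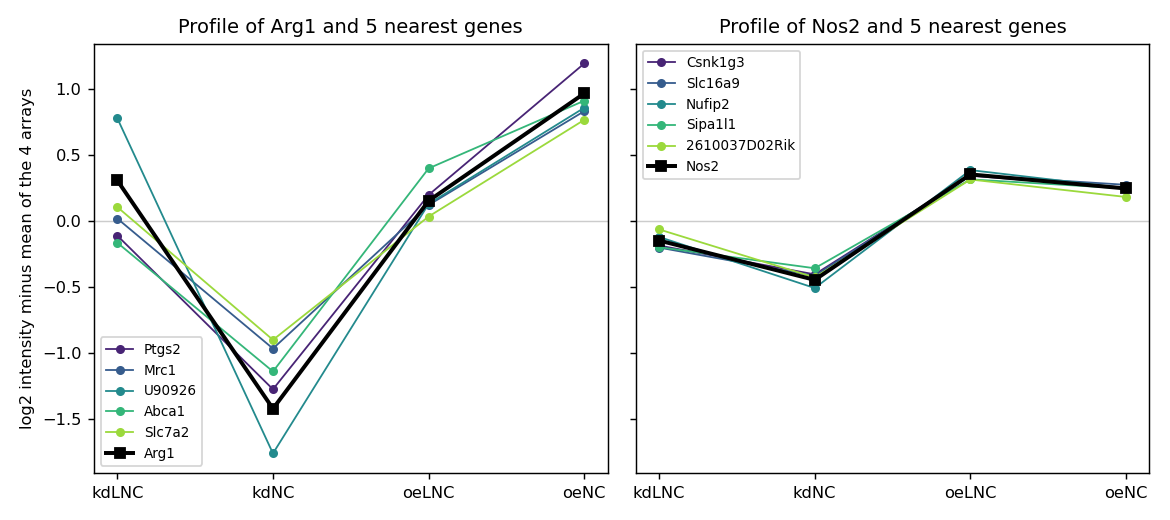
Log2 intensity centred on each gene's mean over the 4 arrays (vertical axis) on kdLNC, kdNC, oeLNC and oeNC (horizontal axis), for Arg1 and for Nos2 (black squares) with the 5 genes nearest to each in profile. The genes near Arg1 share its low kdNC value, and those near Nos2 its lower knockdown arrays.

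The genes with profiles nearest to Arg1 and Nos2 were sought among 12091 genes by the root mean square distance of centred log2 profiles over the 4 arrays. Arg1, also the member with the widest range, was nearest to Ptgs2 (cyclooxygenase 2, 0.25), the macrophage mannose receptor Mrc1 (0.28), U90926 (0.30), the cholesterol exporter Abca1 (0.30) and Slc7a2 (0.30). Slc7a2 entered by its brightest probe set only, the second described above, where oeNC was the highest array as for Arg1. Its other probe sets that passed had kdLNC as the highest array. Mrc1 had 4.13 in kdLNC and 3.14 in kdNC, and 4.23 in oeLNC and 4.94 in oeNC, and was above the 50th percentile of the array in oeNC alone, so its likeness rests mostly on dim values. Nos2 was nearest to Csnk1g3 (0.03), Slc16a9 (0.03), Nufip2 (0.04), Sipa1l1 (0.05) and 2610037D02Rik (0.06). The distances describe these 4 arrays and carry no test.

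The other genes of arginine metabolism were mostly level within the pairs. In 5 lists of 60 genes, 54 were measured by 104 probe sets. In the knockdown pair 2 of 66 probe sets that passed had a value in kdLNC higher by 1.5-fold or more and 0 had a lower one, where 3.47% and 1.78% of all probe sets were. In the overexpression pair 2 of 64 were higher and 3 lower in oeLNC, where 3.85% and 7.28% were. Between the controls 9 of 66 were higher and 2 lower in oeNC, where 10.7% and 13.9% were. The lists' shares were thus near or below those of all probe sets within both pairs.

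**Figure D4:**
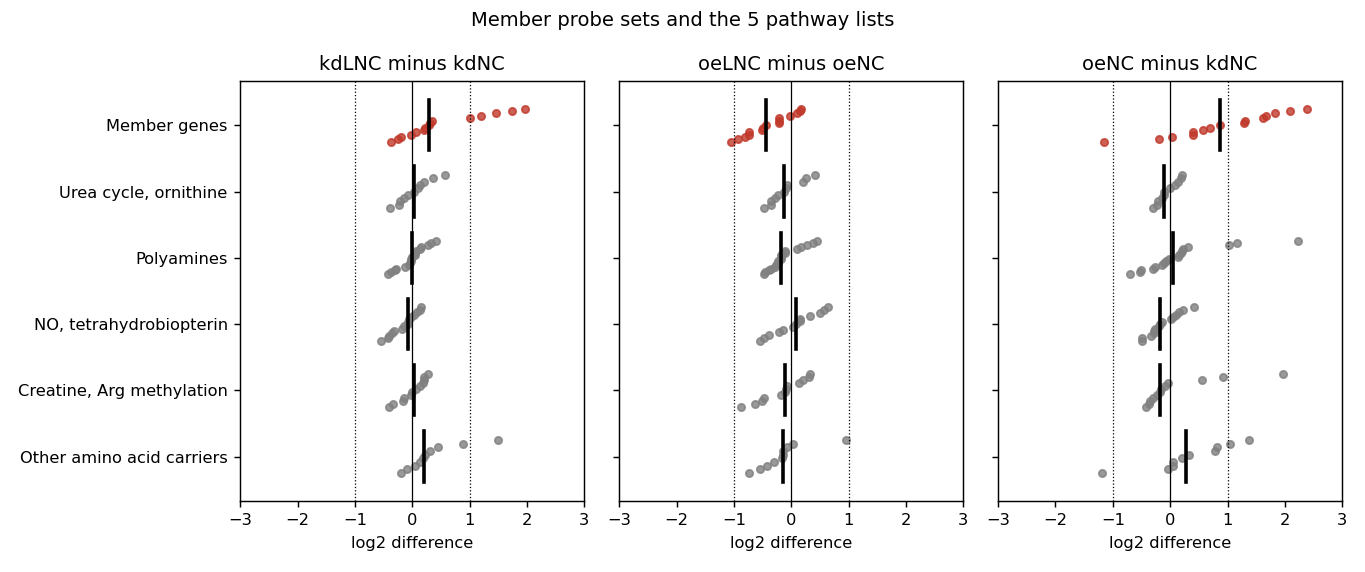
Log2 difference (horizontal axis) of each probe set that passed the filter, for the members (red) and the 5 pathway lists (grey, vertical axis), in the knockdown pair (kdLNC minus kdNC), the overexpression pair (oeLNC minus oeNC) and the controls (oeNC minus kdNC). Black bars are list medians and dotted lines mark 2-fold. The highest grey point in the knockdown pair is Slc7a3, at 1.49.

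Among the other cationic and dibasic amino acid carriers, 10 probe sets passed, with medians of 0.20 and -0.15 in the knockdown and overexpression pairs. Slc7a3, which encodes CAT-3, had 6.37 in kdLNC and 4.88 in kdNC, and 4.85 in oeLNC and 4.93 in oeNC, so kdLNC stood above the other 3 arrays. It differed by 1.49 and -0.08, and its control difference was 0.05. Slc7a11, the cystine and glutamate exchanger, had 7.69 in kdLNC and 6.80 in kdNC, and 6.85 in oeLNC and 7.58 in oeNC at one probe set (0.89 and -0.74), but its brighter probe set differed by 0.05 and -0.31. Slc7a6, a dibasic amino acid exchanger subunit, had 5.43 in kdLNC and 5.30 in kdNC, and 5.07 in oeLNC and 4.12 in oeNC at one probe set, an overexpression difference of 0.95, against 0.03 at the other. The first of these was below the 50th percentile of the array in oeNC, so it passed through oeLNC, where it was higher. Among the nitric oxide and tetrahydrobiopterin genes, a Nos1 probe set was higher in oeLNC than in oeNC by 0.64, where its other probe set that passed differed by 0.16. Among the creatine and arginine methylation genes, Prmt1, the main arginine methyltransferase, was lower in oeLNC than in oeNC by 0.88, and 1 of 2 Prmt6 probe sets by 0.63. The other Prmt6 probe set was higher in oeLNC, by 0.32. In the polyamine list, with 18 probe sets that passed, and the urea cycle and ornithine list, with 11, 0 differed by 1.5-fold within a pair. Between the controls, 3 genes are named after their values were seen. The spermine oxidase gene Smox had oeNC minus kdNC differences of 2.23 and 1.02 at its 2 probe sets, and the 2 probe sets that were lower belonged to the spermidine synthase gene Srm (-0.70) and to Slc7a6 (-1.19, against 0.05 at its other probe set), with a dim level in oeNC.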

How the data were processed

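Total RNA of 4 MDSC cultures, 1 per group, was hybridised to Affymetrix mouse arrays. The authors deposited probe set intensity values on a linear scale, and the submitters' processing notes name RMA without a version or settings. RMA usually equalises the distributions of arrays, which would hide a shift shared by most genes, but the array medians here were not identical. Log2 was taken of the deposited intensity values of 45101 probe sets. The platform annotation gave 1 gene symbol to 34958, several to 932 and none to 9211, and only the first kind was used. All 9 member gene IDs matched the RefSeq table. The number of arrays limits the precision.

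Log2 differences were formed within the knockdown pair, within the overexpression pair and between the controls (Python 3.11.15, pandas 2.3.3, numpy 2.4.6, statsmodels 0.14.6; figures, matplotlib 3.10.9). The limma test that the methods name needs replicates and was not fitted. Calls used the 50th percentile filter and 2-fold, or 1.5-fold for lists. Every member probe set is reported. List genes are named where they differed by 1.5-fold in a pair, and for Arg1 and Nos2 the 5 genes nearest in profile. The members and lists were chosen with earlier results of these data known. Alternatives were median centring, quantile, loess (span 0.3), the filter, fold, probe set choice and control. The calculation was run on simulated data with planted changes, which checks the code and not how far these differences would repeat.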

Additional observations from a re-analysis of the deposited data

How the results depend on the processing

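Each of the 3 comparisons rests on 1 array per group, so neither leaving out an array nor a replicate error was possible. No paired analysis was possible because no group holds more than 1 array. In the knockdown pair, the report counted 5 of 15 member probe sets as at least 2-fold higher in kdLNC. After quantile normalization the count was 4 of 15 (0.754% of all probe sets), where 1 Slc7a2 probe set had a difference of 0.98. It was 2 of 15 with the mean of both controls (1.36%) and 2 of 15 at 3-fold (0.0910%). Without probe sets that may match several transcripts it was 3 of 9 (0.491%). With 1 value per gene it was 2 of 8, both for the brightest probe set (0.478%) and for the mean of its probe sets (0.316%). In the overexpression pair, the count lower in oeLNC, 1 of 15 in the report, was 0 of 15 after quantile normalization (1.38% of all probe sets). The same count, 0 of 15, came with the mean of both controls (0.444%) and at 3-fold (0.105%). Without shared probe sets it was 0 of 9 (1.06%). With the brightest probe set (0.809%) and with the mean (0.498%) it was 0 of 8. It was 2 of 18 with no filter (0.950%) and 5 of 15 at 1.5-fold (7.28%). Between the controls, the count higher in oeNC, 7 of 15 in the report, was 3 of 9 without shared probe sets (3.50%). With the brightest probe set it was 4 of 8 (3.03%) and with the mean 3 of 8 (2.21%). The count lower, 1 in the report, was 0 in these settings (5.65%, 4.00% and 2.94%) and at 3-fold (1.0%). With the control array of the other vector, chosen after seeing the data, kdLNC had 0 member probe sets at least 2-fold higher (5.94% of all) and 3 lower (4.10%), and oeLNC had 3 higher (0.793%) and 0 lower (3.78%). Of 144 alternative values of single member differences, 16 moved by more than the spread and 128 did not. All 16 were among the 36 values with the mean of both controls. Median centring, quantile normalization and loess, with 36 values each, only rescale the arrays and moved none. The pooled count therefore does not measure how stable the differences are. The sign changed at 19, none of them a called difference, but these values leave out the control array of the other vector. With that array the sign turned at some calls. kdLNC was below oeNC for Arg1 (10.53 and 11.19) and 1 Slc7a2 probe set (6.16 and 6.82). The Odc1 probe set called in both pairs was also lower in kdLNC (8.95) than in oeNC (9.85). It was higher in oeLNC (8.80) than in kdNC (7.76). The other called Slc7a2 probe sets stayed higher in kdLNC than in oeNC (6.27 and 5.92, 6.60 and 5.71).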

Other observations

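The probe sets of the bacterial spike controls differed between arrays, mostly at dim levels. Phe had a mean log2 of 3.91 to 4.17, near the array medians of 4.17 to 4.24. Lys (4.37 to 5.03) and Thr (4.73 to 5.12) were not far above these medians, and Dap was at 6.26 to 6.83. In oeLNC minus oeNC, the mean log2 difference over 3 probe sets each was -0.66 (Lys), -0.43 (Dap), -0.39 (Thr) and -0.26 (Phe). In kdLNC minus kdNC it was 0.09 (Lys), 0.23 (Dap), -0.19 (Thr) and -0.003 (Phe). Between the controls, oeNC minus kdNC was 0.39 (Lys), 0.57 (Dap), 0.16 (Thr) and 0.18 (Phe), and oeNC was the highest array for each.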
